A study of Mus musculus with 26 samples.

Results

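The data described here are the 6 RNA-seq libraries of the restimulation experiment among the 26 libraries of the series. They comprise 3 libraries of restimulated Foxp3- cells and 3 libraries of day 6 iTregs, chosen by their columns in the restimulation count table and described across all genes. All 6 come from naive CD4+ T cells of the spleen and lymph nodes of C57BL/6 Foxp3-eGFP reporter mice aged 12 to 14 weeks. For the restimulated Foxp3- cells, iTregs made with TGFβ were stimulated again through CD3 and CD28, and cells without Foxp3 were sorted at day 6. The label can be read as day 6 of that restimulation, but this reading is not certain. For the day 6 iTregs, cells differentiated with TGFβ were sorted for Foxp3 on day 6, with no restimulation given in their label. Both groups therefore passed through TGFβ culture. They differ in restimulation, in the sorted Foxp3 state and possibly in time in culture, and these cannot be told apart. The labels do not say whether the replicates are separate animals or cultures, so p-values measure only the spread between these libraries, which may be technical. In bulk libraries, fewer cells that express a gene and less RNA per cell cannot be told apart.

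Naive CD4 T cells that are activated in the presence of TGFβ and IL-2 can switch on Foxp3, the lineage factor of regulatory T cells (Tregs), and such cells are called induced Tregs (iTregs). In contrast to Tregs that arise in the thymus, iTregs often keep methylated DNA at an intronic enhancer of Foxp3 that stabilises its transcription, and they can lose Foxp3 when they divide further. TET enzymes oxidise methylated cytosine at such enhancers and use vitamin C as a cofactor, which is the subject of the series.

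The libraries held 11293704 to 17219805 counts each. Levels are given as CPM, counts scaled to equal library totals, with totals adjusted by the trimmed mean of M-values for single genes and unadjusted for marker sums. The sorted gene matched the labels: Foxp3 had 13.2, 17.4 and 14.2 CPM in restimulated Foxp3- cells, against 339, 314 and 349 CPM in day 6 iTregs, a difference that checks the sort and is not a finding. Cd4 had 716, 707 and 736 CPM in restimulated Foxp3- cells, against 743, 714 and 779.5 CPM in day 6 iTregs (log2 fold change -0.05 ± 0.05 (SE), not called, with the sign turning under unscaled totals), and the 14 T cell identity markers (such as Cd3e, Lck and Thy1) summed to 7130 ± 65.4 CPM in restimulated Foxp3- cells and 7530 ± 177 CPM in day 6 iTregs (SD, n = 3 each). No library stood apart within its group, and the first principal component, with 91.1% of the variance, separated the groups. A set of 13 genes that averaged over 100 counts in 12 libraries of the series' first table, Hmgcs1 among them, had no count in any of these 6 libraries and is not described further.

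Of 11252 tested genes, 7745 (68.8%) passed an adjusted p of 0.05 in edgeR's quasi-likelihood test, 3783 higher (33.6%) and 3962 lower (35.2%) in restimulated Foxp3- cells. At least 2-fold, 679 were higher (6.03%) and 1048 lower (9.31%). The groups did not overlap for 8186 genes (72.8%), so a single call is common here, and each list is to be read against these shares. Glycolysis, hypoxia, sterol and histone genes were lower almost throughout their lists, and most genes of the Treg list were lower too. Th1, homing and quiescence genes were mostly higher. Short transcripts were lower as a class: the median log2 fold change was -0.31, -0.04, 0.09 and 0.24 in 4 equal bins of tested genes from the shortest to the longest exon length. After a correction for this trend the list medians were -0.74 for Treg identity, 1.42 for Th1, 1.13 for cytotoxic, 0.92 for homing, 0.92 for quiescence and 0.43 for TGFβ receptor genes. They were -2.12 for hypoxia, -1.21 for lipid synthesis, -0.74 for mitosis and -0.39 for DNA replication genes, each with the sign it had without the correction.

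**Figure D1:**
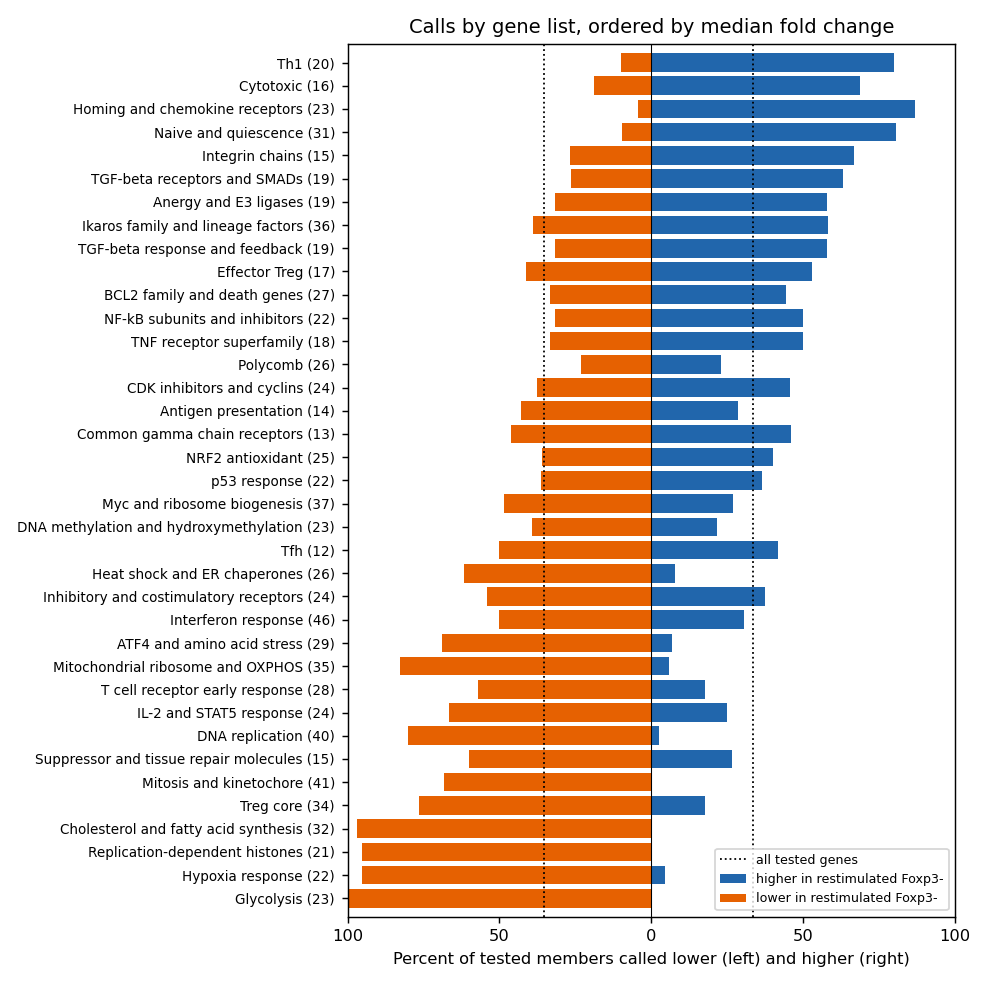
Percent of tested members of each gene list (number tested in brackets) that were called higher (blue, right) or lower (orange, left) in restimulated Foxp3- cells against day 6 iTregs, with lists of at least 12 tested members ordered by median log2 fold change. Dotted lines mark all tested genes, 33.6% higher and 35.2% lower, and the glycolysis list has all 23 members on the lower side.

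Among genes of Treg identity, 26 of 34 tested members were lower in restimulated Foxp3- cells and 6 were higher, with a median log2 fold change of -1.07 over the list against -0.01 over all tested genes. A separate list of effector Treg genes, which holds Cxcr3, was divided, with 9 of 17 tested members higher, 7 lower and a median of 0.28. Gpr83, a G protein-coupled receptor enriched in Tregs, had 0.172, 0.246 and 0.814 CPM in restimulated Foxp3- cells, against 34.9, 39.7 and 49.2 CPM in day 6 iTregs. Tnfrsf9, which encodes the costimulatory receptor 4-1BB, had 3.88, 4.49 and 3.7 CPM in restimulated Foxp3- cells, against 212, 255 and 331 CPM in day 6 iTregs. The 2 groups were far apart for both genes, with log2 fold changes of -6.55 ± 0.28 (SE) and -6.04 ± 0.25 (SE). Izumo1r, which encodes folate receptor 4, a surface marker of Tregs and anergic T cells, had a log2 fold change of -5.19 ± 0.26 (SE).

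Il2ra encodes the high-affinity chain of the IL-2 receptor (CD25) and had 748, 769 and 727 CPM in restimulated Foxp3- cells, against 3442, 3481 and 3547 CPM in day 6 iTregs. Its log2 fold change was -2.22 ± 0.06 (SE), with an edgeR adjusted p of 1.03e-13. The IL-2 receptor beta chain gene Il2rb was 1.42-fold lower. The list of suppressor and tissue repair molecules had 9 of 15 tested members lower and 4 higher, with a median of -0.57. Its member Ctla4, the inhibitory receptor that removes CD80 and CD86 from antigen-presenting cells, had 85, 91.1 and 86.9 CPM in restimulated Foxp3- cells, against 305, 323 and 339 CPM in day 6 iTregs. Lrrc32, which encodes GARP, the anchor of latent TGFβ on the Treg surface, had a log2 fold change of -1.79 ± 0.07 (SE). Il2ra, Il2rb, Ctla4 and Lrrc32 each had all 3 restimulated libraries below all 3 day 6 libraries. Such separation is common here, since the groups did not overlap, in either direction, for 72.8% of all tested genes.

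The Ikaros family gene Ikzf2 encodes Helios and had 5.69, 6.52 and 8.58 CPM in restimulated Foxp3- cells, against 29.6, 32.4 and 38.8 CPM in day 6 iTregs. Its relative Ikzf4 (Eos), a partner of Foxp3, moved less, with a log2 fold change of -0.54 ± 0.11 (SE). Nrp1, the neuropilin receptor used to mark thymic Tregs, had 15.5, 14.5 and 16.5 CPM in restimulated Foxp3- cells, against 74.4, 68 and 80.1 CPM in day 6 iTregs. The TNF receptor genes Tnfrsf18 (GITR) and Tnfrsf4 (OX40) had log2 fold changes of -1.89 ± 0.09 (SE) and -2.57 ± 0.13 (SE). Not every Treg-linked gene was lower. Itgae, the integrin chain CD103, had 9.92, 7.14 and 11.6 CPM in restimulated Foxp3- cells, against 0.651, 0.423 and 0.759 CPM in day 6 iTregs. Fgl2, a secreted suppressor of T cells, had 218, 220.4 and 202 CPM in restimulated Foxp3- cells, against 29.9, 24.4 and 20.9 CPM in day 6 iTregs. Nt5e, which encodes the adenosine-forming enzyme CD73, was 1.95-fold higher, and Gzmb (granzyme B) was 1.89-fold higher. Another higher member of the Treg identity list was Nebl, a gene for an actin-binding protein, which had 21.1, 22.3 and 21.4 CPM in restimulated Foxp3- cells, against 0.326, 0.0604 and 0.069 CPM in day 6 iTregs.

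**Figure D2:**
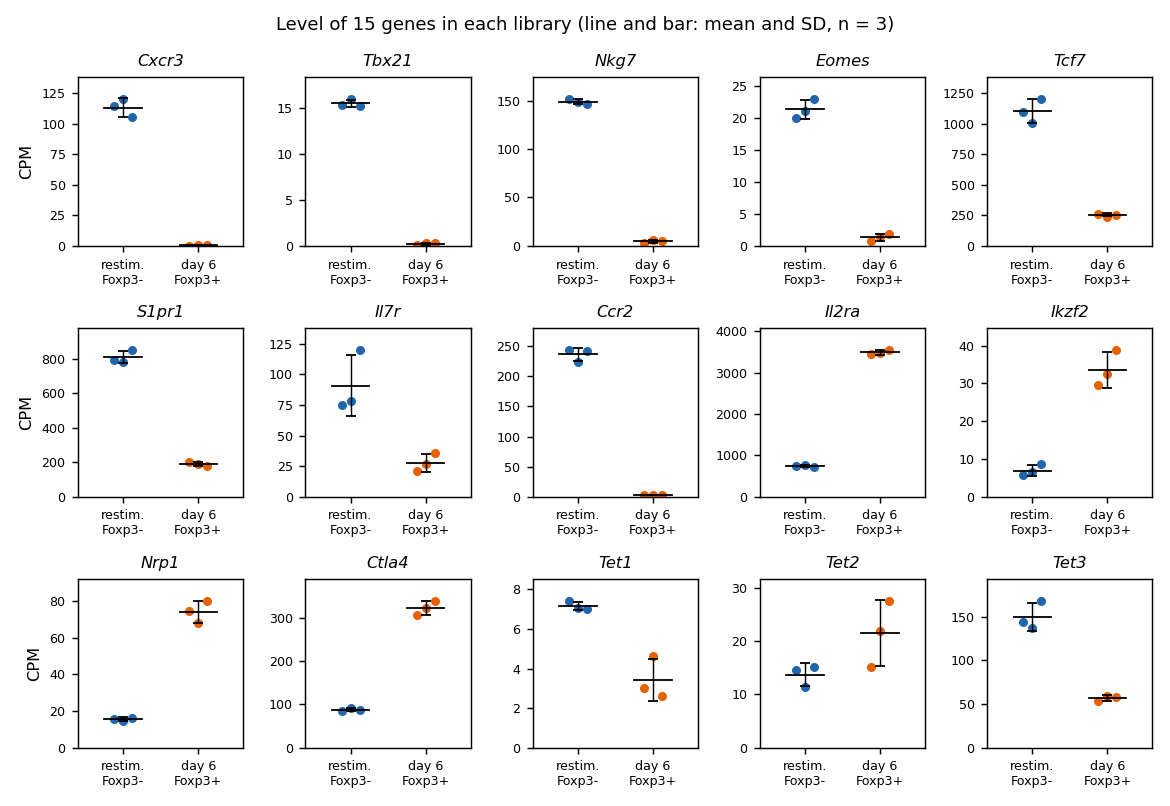
CPM of 15 genes in each of the 6 libraries, with restimulated Foxp3- cells on the left (blue) and day 6 iTregs on the right (orange), a line at the mean and a bar of 1 SD (n = 3). The groups overlap for none of the 15 genes and come closest for Tet2, where a restimulated and a day 6 library both round to 15.2 CPM. Over all tested genes, the groups do not overlap for 72.8%. Each axis starts at 0.

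Genes of the Th1 program were higher. Of 20 tested members, 16 were higher and 2 lower, Tnf among them, the median log2 fold change was 1.26, and 12 members were at least 2-fold higher. Cxcr3, the chemokine receptor that guides Th1 cells to inflamed tissue, had 114, 119.9 and 105 CPM in restimulated Foxp3- cells, against 0.326, 0.483 and 0.552 CPM in day 6 iTregs. Tbx21, which encodes the Th1 master regulator T-bet, had 15.4, 16 and 15.3 CPM in restimulated Foxp3- cells, against 0.0814, 0.302 and 0.276 CPM in day 6 iTregs. Both genes were near the detection limit in day 6 iTregs, so their log2 fold changes of 7.91 ± 0.13 (SE) and 6.02 ± 0.22 (SE) rest on 20 and 10 counts summed over those libraries. Nkg7, a gene of cytotoxic granule release, had 152, 149 and 146 CPM in restimulated Foxp3- cells, against 3.5, 6.22 and 4.76 CPM in day 6 iTregs. The receptor genes Il12rb2 and Il18r1, through which IL-12 and IL-18 drive interferon-gamma production, were 4.11-fold and 3.24-fold higher. Transcripts of the Th1 cytokine itself were barely seen: Ifng had 6 counts over the restimulated libraries and 0 over the day 6 libraries.

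The cytotoxic list shared several of these genes, and 11 of its 16 tested members were higher and 3 lower. Eomes, a T-box factor of memory and cytotoxic T cells, had 20.1, 21.2 and 23 CPM in restimulated Foxp3- cells, against 0.733, 1.45 and 1.79 CPM in day 6 iTregs. Klrd1, which encodes the NK receptor CD94, had 10.2, 11.3 and 11.6 CPM in restimulated Foxp3- cells, against 0.163, 0.181 and 0.345 CPM in day 6 iTregs. Ctsw, a cathepsin of cytotoxic cells, had a log2 fold change of 2.78 ± 0.07 (SE), whereas Prf1 (perforin) had 0.776, 1.48 and 1.06 CPM in restimulated Foxp3- cells, against 2.2, 2.48 and 1.86 CPM in day 6 iTregs. Markers of other lymphocytes overlap with these genes. The 7 CD8 T cell markers summed to 43.7 to 45.8 CPM in restimulated libraries and 16.2 to 17.3 CPM in day 6 libraries (exact permutation p = 0.1, 2-sided, the smallest that 3 against 3 allows). Eomes and Klrd1 made up most of that sum in restimulated libraries, while the CD8 chain gene Cd8b1 had 10.6, 8.74 and 8.71 CPM in restimulated Foxp3- cells, against 16.1, 15.5 and 14 CPM in day 6 iTregs. The 11 NK and innate lymphoid markers, which share genes with the CD8 list, summed to 43.4 to 49.8 CPM in restimulated libraries and 15.8 to 19 CPM in day 6 libraries, and the NK receptor genes Ncr1 and Klra8 had no count in any of the 6 libraries.

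Receptors for migration were higher as a group, with 20 of 23 tested members higher and 1 lower, and a median log2 fold change of 0.71. Ccr2, the receptor for CCL2, had 243, 224 and 242 CPM in restimulated Foxp3- cells, against 2.44, 2.96 and 2.41 CPM in day 6 iTregs. Cxcr6, the receptor for CXCL16 on tissue-resident T cells, had 179.5, 172 and 165 CPM in restimulated Foxp3- cells, against 1.47, 1.51 and 0.552 CPM in day 6 iTregs. S1pr1, the sphingosine 1-phosphate receptor that lets T cells leave lymph nodes, had 794, 785 and 851 CPM in restimulated Foxp3- cells, against 204, 189.9 and 182 CPM in day 6 iTregs. Integrin chains were mostly higher, with 10 of 15 tested members higher and 4 lower, and a median of 0.57. The lower count was 2 with unscaled totals, in limma on log2(FPKM + 1), and without the first or the second restimulated library. Itga2 was at 30.0, 28 and 34.6 CPM in restimulated Foxp3- cells against 2.85, 2.66 and 2.07 CPM in day 6 iTregs. Among the lower members, Itga7 was at 1.21, 0.738 and 1.44 CPM in restimulated Foxp3- cells against 39.3, 53.4 and 54.8 CPM in day 6 iTregs.

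The list of naive and quiescence genes had 25 of 31 tested members higher and 3 lower, Dapl1 and Id3 among them, with a median log2 fold change of 0.71. Tcf7, which encodes TCF-1, a factor of naive and memory T cells, had 1093, 1003 and 1199 CPM in restimulated Foxp3- cells, against 265, 240.1 and 254 CPM in day 6 iTregs. Il7r, the receptor for the survival cytokine IL-7, had 74.6, 78.3 and 119.9 CPM in restimulated Foxp3- cells, against 21.1, 26.9 and 35.9 CPM in day 6 iTregs. The third restimulated library was the highest for Il7r, and the groups did not overlap. The transcription factor genes Foxo1 and Satb1 had log2 fold changes of 1.25 ± 0.06 (SE) and 1.34 ± 0.08 (SE). The list also holds memory genes: Ly6c1, a surface marker of memory and effector T cells, was 11.1-fold higher, and Cxcr3 is a member of this list as well as of the Th1 and homing lists.

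The TGFβ pathway was represented by its ligands, receptors and SMAD proteins, of which 12 of 19 tested genes were higher and 5 lower, with a median log2 fold change of 0.45. Tgfbr2, the ligand-binding receptor, had 309.5, 321 and 341 CPM in restimulated Foxp3- cells, against 119, 115 and 112 CPM in day 6 iTregs. Tgfbr1, the signalling receptor, and Smad3, the SMAD it phosphorylates, had log2 fold changes of 0.92 ± 0.07 (SE) and 1.27 ± 0.06 (SE). The ligand gene Tgfb1 was lower, with 207, 208 and 195 CPM in restimulated Foxp3- cells, against 328, 329 and 336 CPM in day 6 iTregs, and the co-receptor gene Eng was lower by 9.03-fold on few counts. Among 19 tested target and feedback genes, 11 were higher and 6 lower. Smad7, the inhibitory SMAD induced by TGFβ, had 61.6, 57.4 and 65.3 CPM in restimulated Foxp3- cells, against 27.9, 31 and 33.6 CPM in day 6 iTregs.

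Genes of recent T cell receptor signalling were mostly lower. Of 28 tested members, 16 were lower and 5 higher, with a median log2 fold change of -0.44 that became -0.25 after the correction for exon length. Nr4a1, which encodes Nur77, an immediate-early gene of antigen receptor signalling, had 0.518, 0.185 and 0.188 CPM in restimulated Foxp3- cells, against 20.8, 20.7 and 24.9 CPM in day 6 iTregs. Egr3 and Fos had log2 fold changes of -4.49 ± 0.23 (SE) and -3.91 ± 0.52 (SE). Jun and the antiproliferative gene Btg2 were higher, at log2 fold changes of 0.60 ± 0.06 (SE) and 1.31 ± 0.06 (SE). Targets of IL-2 and STAT5 had 16 of 24 tested members lower and 6 higher. Lta (lymphotoxin alpha) had 59.6, 62.1 and 56.8 CPM in restimulated Foxp3- cells, against 376, 389.7 and 417 CPM in day 6 iTregs, and Lif and Xbp1 had log2 fold changes of -2.63 ± 0.07 (SE) and -2.45 ± 0.07 (SE). Members that went the other way included the survival kinase gene Pim2, at 1.85 ± 0.08 (SE), and the cytokine signalling inhibitor gene Socs3, at 0.70 ± 0.06 (SE) on the log2 scale.

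The most uniform change was in transcripts of glucose metabolism genes. All 23 tested genes of the glycolysis list were lower, 20 of them at least 2-fold, and the median log2 fold change was -2.25. Slc16a3, the lactate exporter MCT4, had 8.63, 10.6 and 7.89 CPM in restimulated Foxp3- cells, against 340.4, 344 and 349 CPM in day 6 iTregs. Tpi1, the triosephosphate isomerase, had 176, 188 and 161 CPM in restimulated Foxp3- cells, against 2168, 2292 and 2329 CPM in day 6 iTregs. Each step of the pathway had members well below their day 6 level, from the glucose transporter genes Slc2a1 and Slc2a3 (log2 fold changes of -2.27 ± 0.06 (SE) and -2.80 ± 0.07 (SE)) and the hexokinase gene Hk2 (-2.83 ± 0.08 (SE)) to Gapdh, Pkm and Ldha. The glyceraldehyde 3-phosphate dehydrogenase gene Gapdh had 1316, 1347 and 1224 CPM in restimulated Foxp3- cells, against 5816, 6232 and 6463 CPM in day 6 iTregs. The pyruvate kinase gene Pkm and the lactate dehydrogenase gene Ldha had log2 fold changes of -2.32 ± 0.06 (SE) and -2.02 ± 0.06 (SE). The smallest change was in the lactate transporter gene Slc16a1, with 86.5, 90.4 and 76.9 CPM in restimulated Foxp3- cells, against 101, 99.7 and 86.5 CPM in day 6 iTregs. Its edgeR adjusted p of 0.0415 was above 0.05 without the first and without the third restimulated library (0.0729 and 0.211) and without the first or second day 6 library (0.169 and 0.177), and likewise in DESeq2 (0.0711), in limma on log2(FPKM + 1) (0.292) and with unscaled totals (0.242). Without Slc16a1, 22 members were lower. Under the correction for exon length the list's median was -2.15, with all 23 genes lower.

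**Figure D3:**
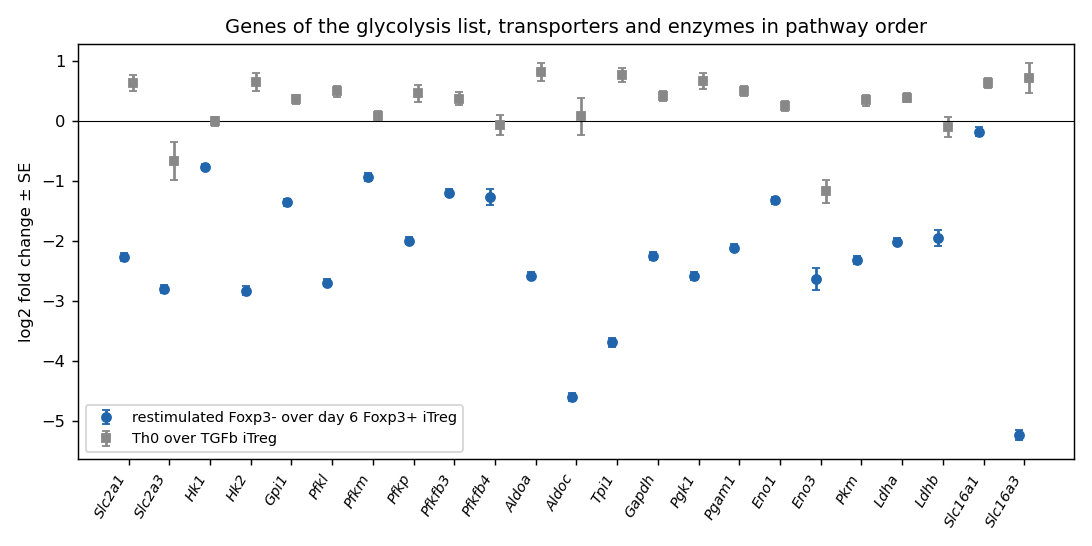
Log2 fold change with its SE for the 23 tested genes of the glycolysis list, in restimulated Foxp3- cells over day 6 iTregs (blue circles) and in Th0 cells over TGFβ iTregs (grey squares), with genes in pathway order. All blue points are below 0, down to -5.25 for Slc16a3, and 15 of the 23 genes were called higher in Th0 cells. Over all genes of the Th0 comparison, 2226 of 11383 were called higher in Th0 cells.

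Genes that the hypoxia-inducible factors (HIFs) switch on followed the same direction: 21 of 22 tested members were lower and 1 higher, with a median of -2.12. Ak4, a mitochondrial adenylate kinase, had 0.172, 0.123 and 0.0626 CPM in restimulated Foxp3- cells, against 64.8, 67.1 and 68.5 CPM in day 6 iTregs. Vegfa, the vascular growth factor, had 0.259, 0.0615 and 0.376 CPM in restimulated Foxp3- cells, against 34.1, 30.8 and 39.7 CPM in day 6 iTregs. Ankrd37, Egln3, which encodes the HIF prolyl hydroxylase PHD3, and Bnip3, a mitophagy receptor gene, had log2 fold changes of -4.44 ± 0.19 (SE), -4.02 ± 0.09 (SE) and -3.23 ± 0.06 (SE). Nrn1, a gene for a small membrane-anchored protein, had 20.1, 24.9 and 24 CPM in restimulated Foxp3- cells, against 402, 451 and 466 CPM in day 6 iTregs. The higher member was the nuclear receptor gene Rora, with 5.18, 4.86 and 6.26 CPM in restimulated Foxp3- cells, against 2.61, 2.35 and 2.55 CPM in day 6 iTregs. Several glycolysis genes are HIF targets too, and Slc2a1 is in both lists.

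Because members of these lists moved together, the 250 bases before the start of the 5 genes with the largest falls in either list (at least 10 CPM in 1 group) are shown, taken from RefSeq on build GRCm38.p6, 5′ to 3′ on the gene's strand. Capitals mark ACGTG or its reverse complement CACGT, the core letters of the hypoxia response element, where it occurs. The windows are chr4:101419039-101419288 (+ strand) for Ak4, chr17:46032378-46032627 (- strand) for Vegfa, chr11:120948817-120949066 (+ strand) for Slc16a3, chr11:78322823-78323072 (+ strand) for Aldoc, the brain-type aldolase gene, and chr8:45999851-46000100 (- strand) for Ankrd37.
Ak4: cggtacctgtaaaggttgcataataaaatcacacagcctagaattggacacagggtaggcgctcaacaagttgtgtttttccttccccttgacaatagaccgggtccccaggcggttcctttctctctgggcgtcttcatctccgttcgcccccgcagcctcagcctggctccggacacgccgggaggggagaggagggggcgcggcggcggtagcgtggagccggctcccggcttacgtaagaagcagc
Vegfa: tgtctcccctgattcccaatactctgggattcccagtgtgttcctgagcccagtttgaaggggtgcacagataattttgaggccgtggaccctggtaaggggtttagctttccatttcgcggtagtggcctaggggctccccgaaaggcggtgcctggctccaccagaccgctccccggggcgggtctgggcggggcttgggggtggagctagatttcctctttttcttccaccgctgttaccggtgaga
Slc16a3: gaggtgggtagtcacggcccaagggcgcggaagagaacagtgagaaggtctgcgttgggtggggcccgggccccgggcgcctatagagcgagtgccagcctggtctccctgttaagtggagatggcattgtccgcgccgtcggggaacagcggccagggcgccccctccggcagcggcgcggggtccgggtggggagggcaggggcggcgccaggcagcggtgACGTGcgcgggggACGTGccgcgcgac
Aldoc: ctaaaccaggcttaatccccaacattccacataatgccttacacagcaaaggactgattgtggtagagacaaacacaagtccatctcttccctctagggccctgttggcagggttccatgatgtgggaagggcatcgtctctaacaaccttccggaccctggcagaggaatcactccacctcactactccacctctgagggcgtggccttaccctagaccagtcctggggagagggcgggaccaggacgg
Ankrd37: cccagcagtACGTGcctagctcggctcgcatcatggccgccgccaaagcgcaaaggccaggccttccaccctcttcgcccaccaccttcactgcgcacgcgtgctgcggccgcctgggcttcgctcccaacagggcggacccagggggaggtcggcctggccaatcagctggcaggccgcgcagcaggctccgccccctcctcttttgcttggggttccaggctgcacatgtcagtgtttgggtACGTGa
Slc16a3 and Ankrd37 each held 2 copies, and the other windows held none. Across the lists, 10 of 18 hypoxia genes with a window (55.6%) and 9 of 22 glycolysis genes (40.9%) held at least 1 copy on either strand, where overlapping copies such as CACGTG count on both strands. The share was 22.6% over 9017 tested genes with a window and 16.6% over all 27025 genes. A match is a description of the letters and not a binding site, and elements outside these windows were not searched. The shares were counted over tested list members whatever their change here. The hypoxia list was made of genes that HIFs switch on, so its share reflects how the list was chosen and does not bear on these libraries.

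Transcripts of lipid synthesis genes were lower as well, with 31 of 32 tested genes of the cholesterol and fatty acid list lower and none higher, and a median log2 fold change of -1.30. Scd1, the stearoyl-CoA desaturase, had 8.54, 10.8 and 4.63 CPM in restimulated Foxp3- cells, against 399, 376 and 334 CPM in day 6 iTregs. Fdps, the farnesyl diphosphate synthase of the sterol pathway, had 81.3, 90.6 and 60.8 CPM in restimulated Foxp3- cells, against 558, 591 and 539.8 CPM in day 6 iTregs. Fads2, a fatty acid desaturase gene, had a log2 fold change of -2.94 ± 0.24 (SE). The third restimulated library was the lowest for Scd1, Fdps and Fads2.

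Oxidative phosphorylation and mitochondrial ribosome genes moved little: 29 of 35 tested members were lower and 2 higher, with a median of -0.37. These transcripts are short, with a median exon length of 949 bases against 3303 over all tested genes, and after the correction for exon length the median was 0.007, with 9 lower and 9 higher, so the direction of this list was lost. Ndufa4, a subunit of cytochrome c oxidase, stood apart with 16.6, 16.7 and 16 CPM in restimulated Foxp3- cells, against 82.2, 102 and 106 CPM in day 6 iTregs. In the NRF2 antioxidant list, 10 of 25 tested genes were higher and 9 lower, and after the correction for exon length 15 were higher and 6 lower, with the median at 0.33 in place of -0.07. Nqo1, the quinone reductase, had 38, 38.9 and 37.6 CPM in restimulated Foxp3- cells, against 4.89, 4.47 and 5.04 CPM in day 6 iTregs, and Srxn1, the sulfiredoxin gene, had 15.4, 14.4 and 14.5 CPM in restimulated Foxp3- cells, against 1.06, 1.21 and 1.17 CPM in day 6 iTregs. Gclm, a subunit of glutathione synthesis, and Nfe2l2, which encodes NRF2, had log2 fold changes of 1.39 ± 0.07 (SE) and 0.98 ± 0.06 (SE).

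Proliferation genes were lower. In the mitosis list, 28 of 41 tested members were lower and none higher (26 lower and 1 higher after the correction for exon length), with a median of -0.78, and in the DNA replication list 32 of 40 were lower and 1 higher (Rpa1), with a median of -0.47. Mki67, which encodes the proliferation marker Ki-67, had 185, 205 and 179.5 CPM in restimulated Foxp3- cells, against 509, 445 and 472 CPM in day 6 iTregs. Rfc3, a clamp loader subunit, had 12.8, 13.7 and 12.4 CPM in restimulated Foxp3- cells, against 27, 28.1 and 25 CPM in day 6 iTregs. Replication-dependent histone genes, whose transcripts mostly lack poly(A) tails and are caught only in part by poly(A) selection, had 20 of 21 tested members lower, with a median of -1.83 that became -1.12 with 16 members lower after the correction for exon length. Cdkn2a, the locus of the cell cycle inhibitors p16 and p19ARF, was higher, with 17.6, 16.4 and 14.6 CPM in restimulated Foxp3- cells, against 2.2, 2.35 and 1.45 CPM in day 6 iTregs. Bcl2l11, which encodes the pro-apoptotic protein BIM, was 4.88-fold higher. The lists of these 2 genes moved in both directions. Among CDK inhibitors and cyclins, 11 of 24 tested members were higher and 9 lower, with a median of 0.03. Among BCL2 family and death genes, 12 of 27 were higher and 9 lower, with a median of 0.16.

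The interferon list was divided, with 23 of 46 tested members lower and 14 higher, and its median of -0.34 became -0.14 after the correction for exon length. Classical type I targets were among the lower ones, such as Ifit1, with 0.604, 0.862 and 0.251 CPM in restimulated Foxp3- cells, against 11.1, 9.24 and 6.14 CPM in day 6 iTregs, and Isg15, with 0.604, 0.369 and 0.752 CPM in restimulated Foxp3- cells, against 6.84, 7 and 6.14 CPM in day 6 iTregs. Ly6a, which encodes Sca-1, was higher, with 221, 221 and 216 CPM in restimulated Foxp3- cells, against 42.4, 75.5 and 47 CPM in day 6 iTregs. Among antigen presentation genes, 6 of 14 tested members were lower and 4 higher, and after the correction for exon length 5 were lower and 7 higher, so the list had no settled direction. H2-Ab1, the MHC class II beta chain, had 1.38, 1.6 and 2.38 CPM in restimulated Foxp3- cells, against 84.4, 102 and 114 CPM in day 6 iTregs, and Cd74, the invariant chain, had 0.0863, 0.185 and 0.376 CPM in restimulated Foxp3- cells, against 12.1, 16.5 and 22 CPM in day 6 iTregs. Both genes are on the B cell marker list and made up most of its sum in day 6 libraries. Its 18 members summed to 4.34 to 5.23 CPM in restimulated libraries and 100 to 137 CPM in day 6 libraries. The B cell genes Ms4a1 and Pax5 had no count in any of the 6 libraries.

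Of the TET genes, Tet1 and Tet3 were higher, and the groups nearly touched for Tet2. Tet3 had 144, 137 and 168 CPM in restimulated Foxp3- cells, against 53.2, 58.9 and 58.1 CPM in day 6 iTregs, with a log2 fold change of 1.40 ± 0.08 (SE) and an edgeR adjusted p of 4.36e-10. Tet1 had 7.42, 7.08 and 7.02 CPM in restimulated Foxp3- cells, against 3.01, 4.65 and 2.62 CPM in day 6 iTregs, with a log2 fold change of 1.04 ± 0.18 (SE). Tet2 had 14.6, 11.3 and 15.2 CPM in restimulated Foxp3- cells, against 15.2, 21.9 and 27.5 CPM in day 6 iTregs. It was called lower, with a log2 fold change of -0.67 ± 0.23 (SE) and an edgeR adjusted p of 0.0347. That adjusted p was above 0.05 without the first or second restimulated library (0.0796 and 0.0529) or the second day 6 library (0.0872). Without the filter on low counts it was 0.0933. Per exon length, Tet3 was the most abundant, at 13.9 ± 1.52 FPKM in restimulated Foxp3- cells and 4.98 ± 0.203 FPKM in day 6 iTregs, against 0.512 ± 0.0153 and 0.232 ± 0.0705 FPKM for Tet1 (SD, n = 3 each). The maintenance methyltransferase gene Dnmt1 had 265, 265 and 254 CPM in restimulated Foxp3- cells, against 373, 313 and 313 CPM in day 6 iTregs. The de novo methyltransferase gene Dnmt3a had a log2 fold change of 0.23 ± 0.07 (SE), which became -0.016 after the correction for exon length, and Dnmt3b did not pass the test (-0.09 ± 0.11 (SE)). Over the whole list of DNA methylation and hydroxymethylation genes, 9 of 23 tested members were lower and 5 higher.

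Lineage regulators moved in both directions, with 21 of 36 tested members of the Ikaros and lineage factor list higher and 14 lower. The lower ones include Foxp3, the sorted gene, whose difference checks the sort and is not a finding. Gata3, the Th2 regulator, had 78.2, 70.2 and 74.7 CPM in restimulated Foxp3- cells, against 43.7, 45.8 and 45.4 CPM in day 6 iTregs, and Maf, a regulator of IL-10 and IL-21, had 11.7, 10.9 and 10.8 CPM in restimulated Foxp3- cells, against 4.89, 4.95 and 4.34 CPM in day 6 iTregs. Bcl6, the follicular helper regulator, was lower, with 3.62, 3.02 and 3.44 CPM in restimulated Foxp3- cells, against 8.31, 8.45 and 7.38 CPM in day 6 iTregs. Runx2, a Runt family factor, had 20.4, 16.9 and 21.2 CPM in restimulated Foxp3- cells, against 2.44, 1.93 and 2.07 CPM in day 6 iTregs. Several effector cytokine transcripts were scarce in both groups: Il10, Il13 and Il17a had no count in any of the 6 libraries, Il4 had 5 counts in all in restimulated Foxp3- cells and 3 in day 6 iTregs, and Il2 had 21 in restimulated Foxp3- cells and 1 in day 6 iTregs. These genes were under the filter on low counts and were not tested between restimulated Foxp3- cells and day 6 iTregs. Il4 was kept in the joint fit with Th0 cells described below, at 6.83 ± 1.27 (SE) in Th0 cells over TGFβ iTregs on the log2 scale. Of 31 cytokine genes in the list, 9 were tested, of which 6 were lower, Lta and Lif among them, and 1 was higher. Of 24 tested inhibitory and costimulatory receptor genes and their ligands, 13 were lower and 9 higher. Pdcd1, which encodes PD-1, had 1.98, 1.72 and 1.06 CPM in restimulated Foxp3- cells, against 8.31, 8.09 and 10.7 CPM in day 6 iTregs. Lgals3, a member of the suppressor list that encodes the carbohydrate-binding protein galectin-3, had 475, 459 and 501 CPM in restimulated Foxp3- cells, against 53.6, 64.7 and 66.8 CPM in day 6 iTregs.

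The 12 largest increases among genes with at least 10 CPM in 1 group included Cxcr3, Ctnnd2, Nebl, Cxcr6, Ccr2, Tbx21, Cd7, Bpifb4, Klrd1, Ryr1 and Lrrc75b. Ctnnd2, which encodes the adhesion protein delta-catenin, had 204, 173 and 180.4 CPM in restimulated Foxp3- cells, against 1.55, 0.966 and 0.69 CPM in day 6 iTregs. Cd7, an immunoglobulin family receptor of T and NK cells, had 128, 93.9 and 120.5 CPM in restimulated Foxp3- cells, against 1.71, 2.23 and 1.66 CPM in day 6 iTregs. Ryr1, the calcium release channel, and Bpifb4 and Lrrc75b had log2 fold changes of 5.14 ± 0.22 (SE), 5.87 ± 0.19 (SE) and 5.10 ± 0.14 (SE). The 12 largest decreases were in Hbb-b1, Hbb-bs, Vldlr, Cdhr3, Ak4, Muc13, Mgarp, Tgm2, Vegfa, Csn2, Gpr83 and Nr4a1. Tgm2, a transglutaminase, had 0.949, 1.05 and 0.752 CPM in restimulated Foxp3- cells, against 166, 146 and 206 CPM in day 6 iTregs. Mgarp, a mitochondrial protein gene, had 0.172, 0.185 and 0.0626 CPM in restimulated Foxp3- cells, against 36.6, 39.2 and 42 CPM in day 6 iTregs, and the casein gene Csn2 had a log2 fold change of -6.88 ± 0.25 (SE). The lipoprotein receptor gene Vldlr had no count in restimulated libraries and 511 in day 6 libraries, at least 172-fold lower when 3 counts over the group are taken as the limit. The cadherin gene Cdhr3 had 1 count in restimulated libraries and 754 in day 6 libraries, a ratio of 762 (95% counting interval 136 to 30100), and the mucin gene Muc13 had 2 counts in restimulated libraries and 962 in day 6 libraries, a ratio of 486 (134 to 4020).

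The haemoglobin beta genes Hbb-b1 and Hbb-bs are near-identical copies whose reads cannot be divided with certainty. Hbb-b1 had 0, 0 and 0 CPM in restimulated Foxp3- cells, against 37, 39.7 and 66.1 CPM in day 6 iTregs, at least 697-fold lower, and Hbb-bs was at least 324-fold lower. Hba-a2, the alpha chain gene, had 22.9, 20.9 and 26.2 CPM in restimulated Foxp3- cells, against 31.8, 28.6 and 33.9 CPM in day 6 iTregs. After the correction for exon length, its log2 fold change was -0.019 and it was not called (edgeR adjusted p = 0.874). The erythroid enzyme gene Alas2 was near 0, with 0.259, 0.185 and 0.251 CPM in restimulated Foxp3- cells, against 0.326, 0.181 and 0.138 CPM in day 6 iTregs. The 8 erythroid and platelet markers summed to 21.6 to 27.2 CPM in restimulated libraries and 83.8 to 126 CPM in day 6 libraries, and Slc4a1, Pf4 and Ppbp had no count in any of the 6 libraries. Cd24a, listed with immature thymocytes, had 0.518, 0.369 and 0.752 CPM in restimulated Foxp3- cells, against 41.1, 40.8 and 36.4 CPM in day 6 iTregs, and the 8 markers of that list summed to 17.5 to 18.3 CPM in restimulated libraries and 57.6 to 64.9 CPM in day 6 libraries. The 22 myeloid and dendritic markers summed to 205 to 217 CPM in restimulated libraries and 262 to 310 CPM in day 6 libraries, with Csf1r and Itgax at 0 in all 6. Of these markers, 18 were under 1 CPM in all 6 libraries, so few genes carried the sum. The 8 markers of gamma-delta and invariant NKT cells summed to 19.8 to 20.9 CPM in restimulated libraries and 9.58 to 10.5 CPM in day 6 libraries. The 10 fibroblast and endothelial markers summed to 92.1 to 95.8 CPM in restimulated libraries and 72.2 to 80.7 CPM in day 6 libraries, with the fibroblast genes Col3a1, Dcn and Pdgfra at 0 in all 6. Nearly all of that sum came from 1 gene, as 9 of the 10 were under 1 CPM in all 6 libraries. The part of these cell types in the results was not tested.

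**Figure D4:**
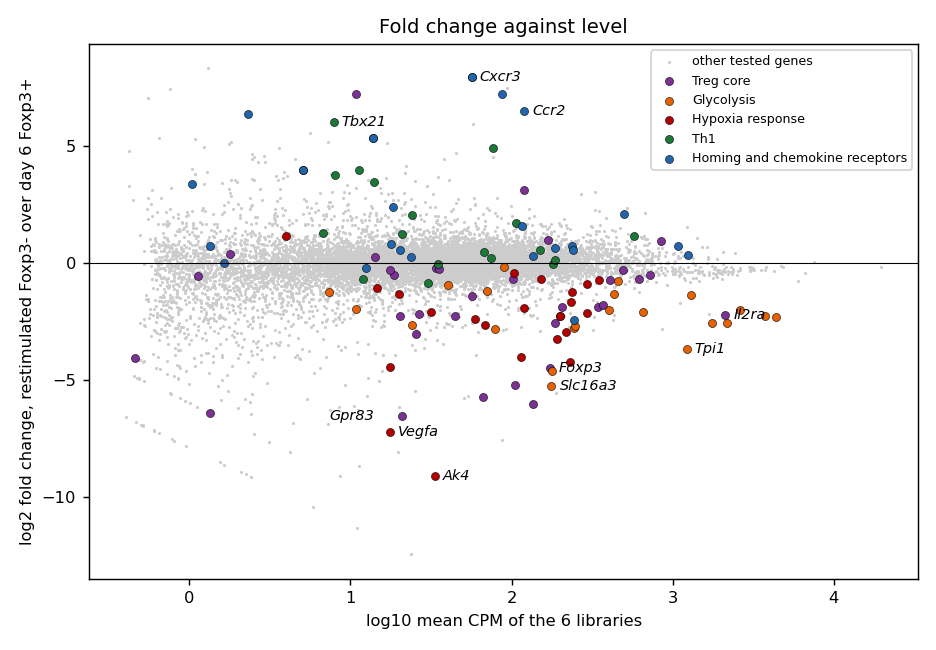
Log2 fold change of restimulated Foxp3- cells over day 6 iTregs against the log10 mean CPM of the 6 libraries, for all 11252 tested genes (grey) and the members of 5 lists; a gene of several lists has the colour of the last one in the legend. Cxcr3, Ccr2 and Tbx21 sit above 5, and Ak4 and Vegfa sit below -7.

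The comparison in the series most like this one is of Th0 cells, activated without TGFβ, against iTregs made with TGFβ (2 libraries each), which also sets cells with little Foxp3 against iTregs. Those cells came from mice aged 5 to 6 weeks and are not labelled as sorted or restimulated, and the libraries are in a table counted apart from this one, so only differences within each table were compared. No library is shared. In a joint fit, 4134 of 11383 genes (36.3%) were called between Th0 cells and TGFβ iTregs, 2226 higher and 1908 lower in Th0 cells. The 2 contrasts differed for 6666 genes (58.6%), with 3282 higher and 3384 lower in the restimulation contrast. Of 3154 genes called in both contrasts, which are 40.8% of the restimulation calls and 76.3% of the Th0 calls, 1217 moved in the same direction and 1937 in opposite directions.

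For Nrp1 and Ctla4 the difference between the contrasts did not pass the test, which does not show the contrasts to be alike. Nrp1 had a log2 fold change of -2.35 ± 0.11 (SE) in Th0 cells over TGFβ iTregs, and the difference between the contrasts was 0.10 ± 0.14 (SE) with an edgeR adjusted p of 0.572. For Ctla4 the difference was -0.03 ± 0.18 (SE), with values from -0.287 to 0.288 when 1 library of either table was left out. The lowest value came without the first Th0 library and the highest without the second. The sign for Ctla4 therefore depended on which Th0 library was kept. Foxp3 itself was at -5.05 ± 0.11 (SE) in Th0 cells, with a difference of 0.58 ± 0.14 (SE). The restimulated and day 6 cells were sorted on Foxp3, so this difference is not a finding. Ikzf2 was at -3.59 ± 0.21 (SE) in Th0 cells, with a difference of 1.34 ± 0.29 (SE) and an edgeR adjusted p of 0.00146. Genes high in restimulated Foxp3- cells that were also high in Th0 cells included Ctnnd2 and Nebl, at 6.33 ± 0.28 (SE) and 6.25 ± 0.42 (SE) in Th0 cells, and neither difference passed the test. Cxcr6 was at 5.14 ± 0.28 (SE) in Th0 cells, and its difference of 2.05 ± 0.58 (SE) became 1.10 (edgeR adjusted p = 0.352) without the first TGFβ iTreg library.

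The metabolic genes separated the contrasts. All 23 glycolysis genes and all 22 hypoxia genes differed between them, and 15 glycolysis genes were called higher in Th0 cells. Slc16a3 was at 0.72 ± 0.25 (SE) in Th0 cells, a difference of -5.96 ± 0.36 (SE), and Tpi1 was at 0.76 ± 0.11 (SE), a difference of -4.45 ± 0.15 (SE). For Scd1 the difference was -5.25 ± 0.56 (SE), and 30 of 32 lipid synthesis genes differed, all of them lower in the restimulation contrast. Eno3, the muscle enolase gene, was the 1 glycolysis gene called lower in Th0 cells, at -1.18 ± 0.19 (SE). In the DNA replication list, 33 of 40 genes were higher in Th0 cells, and 36 differed between the contrasts. Over all 11383 genes, 2226 were called higher in Th0 cells, and the contrasts differed for 58.6%.

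Effector and migration genes separated them too. In the Th1 list, 17 of 20 genes differed, all higher in the restimulation contrast, where 58.6% of all genes differed in either direction. Nkg7 was at -2.46 ± 0.40 (SE) in Th0 cells, with a difference of 7.39 ± 0.39 (SE). Ccr2 was at 0.27 ± 0.12 (SE) in Th0 cells, with a difference of 6.23 ± 0.17 (SE). Itgae and Fgl2, higher after restimulation, were lower in Th0 cells at -2.04 ± 0.57 (SE) and -1.93 ± 0.41 (SE). Maf was at -4.78 ± 0.50 (SE) and Il12rb2 at -2.78 ± 0.30 (SE) in Th0 cells. Smad7 and Tgfbr1 were at -0.83 ± 0.11 (SE) and -0.67 ± 0.09 (SE) in Th0 cells, and the difference for Smad7 was 1.84 ± 0.13 (SE). Tcf7 was higher in both, by 1.44 ± 0.10 (SE) in Th0 cells, and S1pr1 was at 0.03 ± 0.08 (SE) in Th0 cells, with a difference of 2.06 ± 0.10 (SE) (edgeR adjusted p = 1.18e-11).

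**Figure D5:**
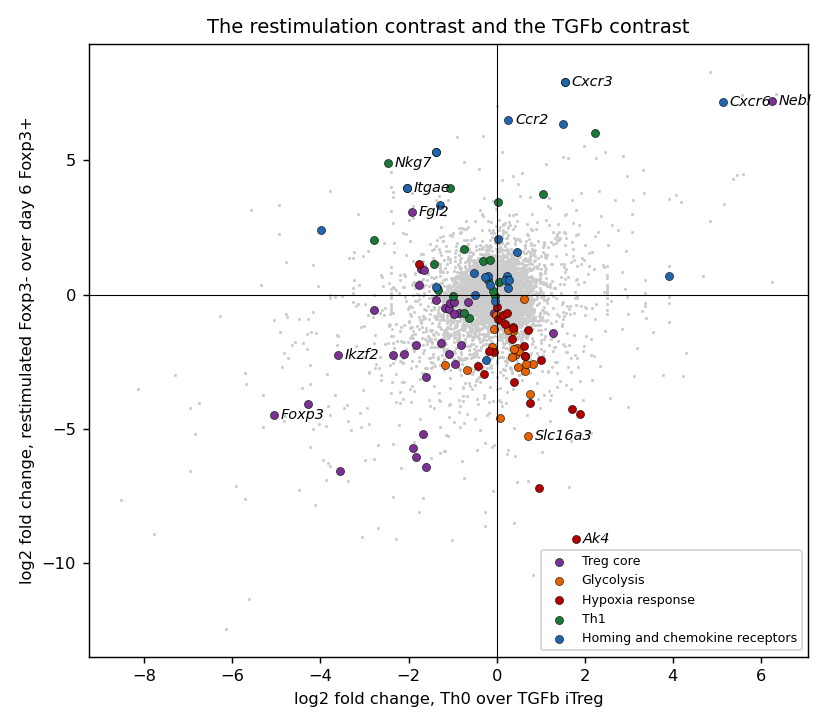
Log2 fold change of restimulated Foxp3- cells over day 6 iTregs (vertical) against that of Th0 cells over TGFβ iTregs (horizontal) for genes in both fits, with 5 gene lists coloured as in the plot of fold change against level. Foxp3 and Ikzf2 sit low on both axes, Nebl and Cxcr6 high on both, and the glycolysis and hypoxia genes sit mostly below 0 on the vertical axis and near or right of 0 on the horizontal one.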

How the data were processed

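Per the submitters' processing notes, the tools named are TopHat2 2.1.1 on build mm9, edgeR 3.26.6 under R 3.6.1, Picard 2.5.0 and SAMtools 1.7, besides Trim Galore 0.4.2 and bcl2fastq 2.20.0.442. The counting tool and annotation release are not given in the sources used here. RNA was prepared with the RNeasy Plus kit and libraries with a TruSeq stranded mRNA kit, per the labels' protocols. The authors deposited whole-number counts per gene for the restimulation experiment, not normalized, with exon lengths. The FPKM values of the deposited table were recomputed from these counts and lengths within a relative difference of 4.9e-08.

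The 6 libraries were fitted with edgeR 4.0.16 (R 4.3.3) by its robust quasi-likelihood test, with TMM scaling, filterByExpr and no covariate, leaving 4 residual degrees of freedom. Adjusted p-values are Benjamini-Hochberg over all 11252 tested genes, called at 0.05. SEs are the size of the log2 fold change over the square root of its F statistic. The difference between contrasts came from 1 joint fit with the 4 Th0 and TGFβ iTreg libraries, so that each contrast stayed within its own table, adjusted over 11383 genes. The scripts were tested on simulated data. For the difference between contrasts, the bound first set on recovering 2-fold changes was not met and was then relaxed, so a difference of that size can miss the threshold. A total of 92 genes without a symbol (at most 0.0357% of a library's counts) stayed in the fit and are not named. Intervals and limits on low counts cover counting error only, at 95%.

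Genes named are 25 followed genes (18 tested, 7 higher and 10 lower), the 12 largest changes in each direction with at least 10 CPM in the higher group, up to 4 members with the largest change in each direction of each list, and members named beside their list's count; some of these are not reported here. The members and gene lists were chosen with earlier results of these data known. Alternatives were DESeq2 1.42.0, log2(FPKM + 1) in limma 3.58.1 (trended variance), RLE factors, no filter, a log2 fold change over 1, a replicate block, each library left out, and, chosen after seeing the data, unscaled totals and a correction for the trend on exon length.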

Additional observations from a re-analysis of the deposited data

How the results depend on the processing

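The count of 3783 higher and 3962 lower genes became 3506 and 3579 with DESeq2, 4288 and 3437 with limma on log2(FPKM + 1), 3819 and 3927 with RLE factors, 3980 and 4168 without the filter, and 3522 to 3854 and 3578 to 3859 when 1 library was left out. After seeing the data, unscaled totals (4338 higher and 3408 lower) and the exon length correction (4339 and 3108) were added, and both turned the balance towards higher genes. Requiring a log2 fold change over 1 in the test itself left 1125 genes, 429 higher and 696 lower. With a replicate block, 3901 were higher and 4102 lower. Same-numbered libraries correlated at 0.0778, 0.0967 and 0.197, so the numbers were not taken to pair them, although each library correlated best with its own number.

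The exon length correction turned the medians of 8 lists to the other sign: Th17 (0.053), Tfh (0.113), Myc and ribosome biogenesis (0.044), mitochondrial (0.007), NRF2 (0.325), antigen presentation (0.103), common gamma chain (0.091) and CDK inhibitors and cyclins (-0.017). It also turned Dnmt3a (-0.016). The NRF2, antigen presentation and common gamma chain medians, all near 0, turned under limma (0.010, 0.015 and 0.012) and unscaled totals (0.006, 0.013 and 0.012) too. Limma turned the chemokine list (0.282, 2 members) and Cd4 (0.027), Cd4 also under unscaled totals (0.026), and gave the Treg list a median of -0.633. The difference between contrasts for Ctla4 ran from -0.287 to 0.288 and for Bcl6 from -0.273 to 0.068 with 1 library left out. Over adjusted totals the marker sums differed by -787 CPM for T cell identity, 26.1 for CD8, 9.7 for gamma-delta and invariant NKT and 13.1 for fibroblast and endothelial genes. The cause of these changes was not tested. For the named genes between restimulated Foxp3- cells and day 6 iTregs, 1571 results kept their direction and side of the threshold. Another 12 lost the call and 3 turned sign. This tally leaves out the alternative that required a log2 fold change over 1. It also leaves out the differences between contrasts, of which 4 results turned sign. Depth limited genes with few counts, and cytokine genes under the filter were not tested between restimulated Foxp3- cells and day 6 iTregs.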
